A study of Homo sapiens with 14 samples.

Results

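The DUXAP pseudogenes DUXAP8, DUXAP9 and DUXAP10 were described here by the C-to-U edit sites called on their own strand in 14 INSCRIBE libraries. Members were all sites and edit clusters inside the hg38 Gencode spans of the 3 genes. They held 863 site calls of 394915 in the series, at 369 positions of 363599. The genes were chosen by the share of their positions called in every library, their edit fractions and their site numbers by group, as seen in earlier looks at these files, so site numbers, recurrence and edit fractions are given as a description, with no test.

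In INSCRIBE, HEK293T cells, a line derived from human embryonic kidney that part of the labels call HEK293XT, are fixed in methanol and incubated with an antibody to RBFOX2 and then with APO1-Nb, a purified APOBEC1-nanobody fusion that deaminates C to U near the antibody. RBFOX2 libraries received antibody and APO1-Nb, Enzyme-only libraries received APO1-Nb without antibody, and Buffer-only libraries received neither. All cells were unmodified, fixed and incubated the same way, and libraries were made from 1 ng or 100 pg of total RNA. Each input had 3 RBFOX2, 1 Enzyme-only and 3 Buffer-only libraries. The study calls its replicates technical, so the spread between libraries may not include variation between cultures, and a single Enzyme-only library per input carries no spread of its own.

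DUXA is a double-homeobox transcription factor gene, and the DUXAP genes descend from copies of its processed transcript. DUXAP8, DUXAP9 and DUXAP10 lie in duplicated sequence near the centromeres of chromosomes 22 and 14 and are transcribed as long noncoding RNAs, which have been studied mostly in cancers. APOBEC1 favours a C that follows A or U, and RBFOX2 binds the RNA motif UGCAUG, so both leave features that can be looked for around an edited base. Because the copies are nearly identical, a short read from one of them can match the others equally well.

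DUXAP8 (ENSG00000206195.11, a long noncoding RNA gene) spans chr22:15784959-15829984 on the plus strand. DUXAP9 (ENSG00000225210.10) spans chr14:19062316-19131167 on the plus strand and DUXAP10 (ENSG00000244306.11) spans chr14:19268853-19337730 on the minus strand, both annotated as transcribed processed pseudogenes. Annotated exons cover 10114, 4846 and 12311 nt of DUXAP8, DUXAP9 and DUXAP10 in that order. Smaller genes are nested in or overlap all 3 spans on either strand, and every site on the strand of a member was counted to the member.

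Across the series, libraries held 18650 to 42589 sites, with a median coverage of 19 to 23 reads per site. The files list edited positions and not expression, so the line could be checked only by site counts. The neural and kidney-line genes CDH2, LIN28B and NEFM had 81, 34 and 51 sites over all libraries and PAX2 had 0, while PTPRC, CD3E, ALB and PECAM1 (blood, liver and endothelium) had 0 and COL1A1 (fibroblasts) had 2.

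Of the 369 positions, 6 were called in all 14 libraries, 3 in DUXAP9 and 3 in DUXAP10. The share was 1.63%, against 0.0185% (44 of 237661 positions) over all other genes. Their sequences are shown because these are the bases that appeared in every group, antibody or not. Each line gives 14 bases on either side of the called C, which is in capitals, on the strand of the gene (hg38).

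DUXAP10 chr14:19298935-19298963 (minus, exon) and DUXAP9 chr14:19101058-19101086 (plus, intron), both called: ctcattatccagccCcctggaatcaggcc
DUXAP10 chr14:19298791-19298819 (minus, exon): ggctatggttcaggCgcacttcacatgtg
DUXAP10 chr14:19325074-19325102 (minus, exon): gaatggtcagactaCcatgcactgttaaa
DUXAP9 chr14:19066309-19066337 (plus, exon): tacagcagtttcctCatccctgcagctgt
DUXAP9 chr14:19093752-19093780 (plus, exon): gcaaattatgtaccCagtcctgtccctga

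The same 29 bases, with C at the called base, stand in the reference of all 3 genes at each of these positions. The 6 calls therefore fall on 5 bases of the shared sequence. The base at chr14:19298949 of DUXAP10 was called in 14 libraries and its equivalent in DUXAP9 at chr14:19101072 also in 14, but the equivalent in DUXAP8 at chr22:15823636 in 0. The base at chr14:19066323 of DUXAP9 was called in 14 libraries, its equivalent in DUXAP8 in 13 and its equivalent in DUXAP10 in 0. The bases at chr14:19325088 of DUXAP10 and chr14:19093766 of DUXAP9 were called in no other copy, and the equivalent of chr14:19298805 in DUXAP9 was called in 1 library.

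The edit fraction is the share of reads at a site that carry the edited base. At chr14:19298949 of DUXAP10 it was 0.419, 0.374 and 0.372 in the RBFOX2 libraries of 1 ng, 0.444 in the Enzyme-only library and 0.372, 0.214 and 0.401 in the Buffer-only libraries, at 113 to 171 reads. At 100 pg it was 0.435, 0.301 and 0.406 in RBFOX2 libraries, 0.443 in the Enzyme-only library and 0.342, 0.333 and 0.222 in Buffer-only libraries, at 79 to 187 reads. The RBFOX2 and Buffer-only ranges overlapped at both inputs.

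The equivalent base of DUXAP9, chr14:19101072, carried lower fractions. They were 0.194, 0.190 and 0.164 in RBFOX2 libraries of 1 ng, 0.178 in the Enzyme-only library and 0.0769, 0.103 and 0.265 in Buffer-only libraries. At 100 pg they were 0.194, 0.125 and 0.0896 in RBFOX2 libraries, 0.185 in the Enzyme-only library and 0.147, 0.0732 and 0.0595 in Buffer-only libraries. The fraction was higher in DUXAP10 than in DUXAP9 in 14 of 14 libraries, with medians of 0.373 and 0.155, and coverage was higher in DUXAP10 as well, with medians of 142.5 and 54.5 reads. The nearest base that differs between these 2 copies lies 57 nt away, and reads that do not reach it match both. The values are therefore those of reads as placed.

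**Figure D1:**
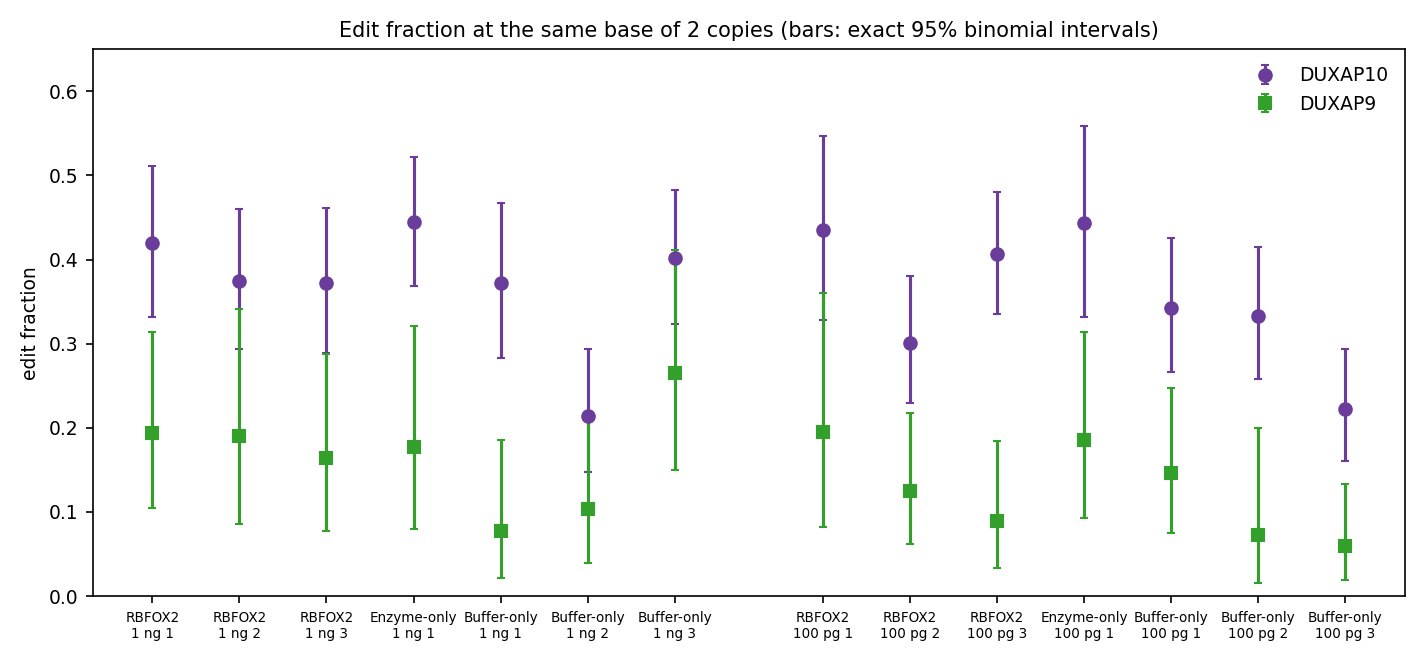
Edit fraction (y axis) at chr14 base 19298949 of DUXAP10 (circles) and the equivalent base of DUXAP9 (squares) in each of the 14 libraries (x axis), with exact 95% binomial intervals that cover counting error only. The DUXAP10 value lies above the DUXAP9 value in 14 of 14 libraries, for reads as placed.

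The base at chr14:19325088 of DUXAP10 had the highest fraction of the 6 over all reads pooled, 0.393, and ranged most widely between libraries. It averaged 0.401 ± 0.0603 in RBFOX2 and 0.383 ± 0.154 in Buffer-only libraries of 1 ng (SD, n = 3 each), with 0.254 in the Enzyme-only library. At 100 pg it averaged 0.439 ± 0.226 in RBFOX2 and 0.354 ± 0.0589 in Buffer-only libraries (SD, n = 3 each), with 0.535 in the Enzyme-only library. The differences between groups were within the spread between libraries.

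The other 3 bases were edited in smaller shares of reads. At chr14:19298805 of DUXAP10 the fraction averaged 0.150 ± 0.0411 in RBFOX2 and 0.136 ± 0.0625 in Buffer-only libraries of 1 ng (SD, n = 3 each). At chr14:19093766 of DUXAP9 it averaged 0.145 ± 0.0582 in RBFOX2 and 0.145 ± 0.0159 in Buffer-only libraries of 1 ng (SD, n = 3 each). At chr14:19066323 of DUXAP9 it averaged 0.0684 ± 0.0429 in RBFOX2 and 0.0952 ± 0.0331 in Buffer-only libraries of 1 ng (SD, n = 3 each). In each case the means differed by less than the larger SD.

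Just short of every library, 9 positions were called in 13. DUXAP8 had 4 of these, and no DUXAP8 position was called in all 14. Counting equivalent bases of the copies as 1, the 369 positions came to 334 bases of the shared sequence, of which 33 were called in more than 1 copy and 5 were called in every library in some copy.

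The positions split into a recurrent and a sporadic class. Of 369 positions, 294 (79.7%) were called in 1 library only, against 95.7% over all other genes. At the other end, 41 positions (11.1%) were called in 7 or more libraries, against 0.141% over all other genes, and these 41 carried 463 of the 863 calls (53.7%). DUXAP8 had 15 such positions, DUXAP9 13 and DUXAP10 13. At the edge of that limit, 2 positions were called in 7 libraries, with median fractions of 0.107 and 0.0833, and 4 in 6 libraries, with median fractions of 0.0364 to 0.375.

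**Figure D2:**
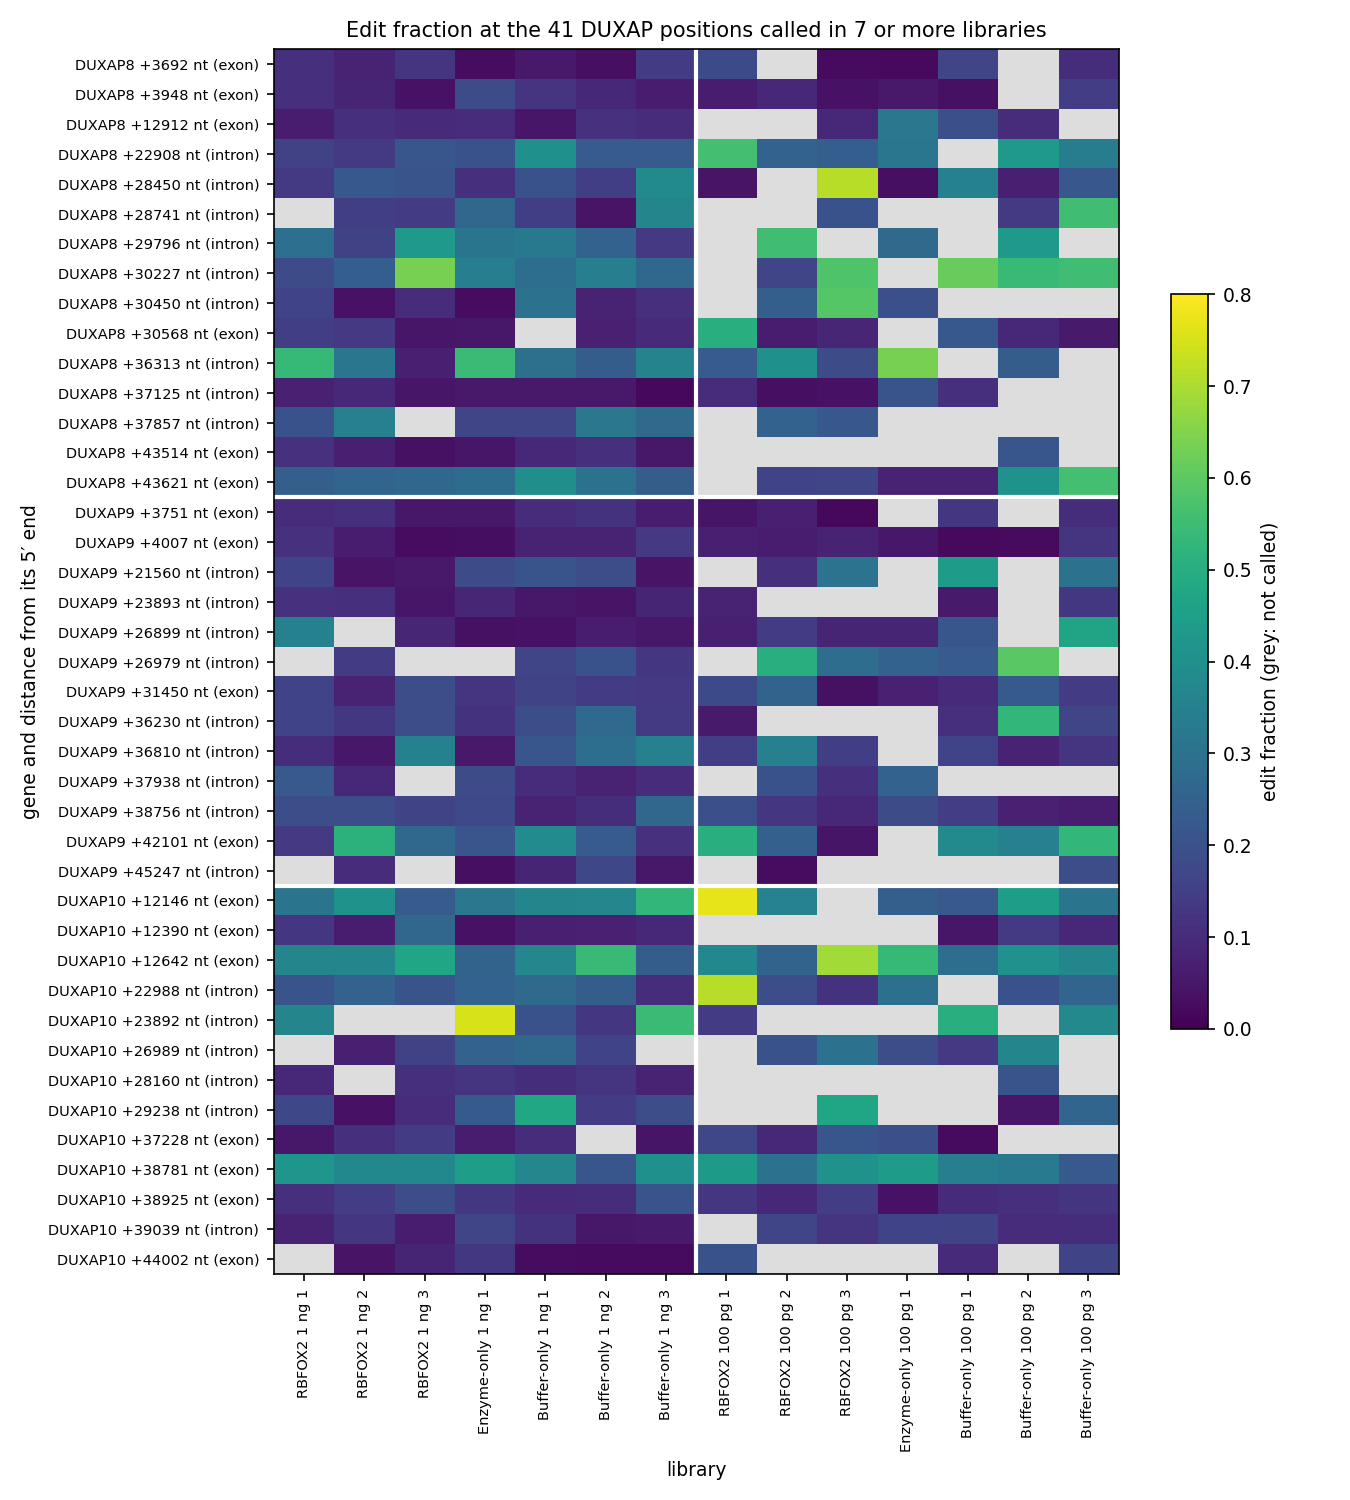
Edit fraction (colour, 0 to 0.8) at the 41 positions called in 7 or more libraries, by gene and distance from the 5′ end in nt (rows), in the 14 libraries (columns, inputs divided by a white line). Grey cells are libraries without a call, and more of them are at 100 pg than at 1 ng.

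The split by group is given as counts only. A limit of 7 of 14 libraries favours positions called in every group, and positions that need APO1-Nb are more likely to fall under it, so the class sets part of the pattern. At 1 ng recurrent positions gave 36, 38 and 36 sites in RBFOX2 libraries, 40 in the Enzyme-only library and 40, 40 and 40 in Buffer-only libraries. At 100 pg they gave 24, 29 and 31 sites in RBFOX2 libraries, 24 in the Enzyme-only library and 29, 27 and 29 in Buffer-only libraries.

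At 1 ng the other positions gave 45, 55 and 49 sites in RBFOX2 libraries, 51 in the Enzyme-only library and 22, 25 and 27 in Buffer-only libraries. At 100 pg they gave 18, 23 and 20 sites in RBFOX2 libraries, 22 in the Enzyme-only library and 17, 13 and 13 in Buffer-only libraries. The ratio of the means, RBFOX2 over Buffer-only, was 2.01 at 1 ng and 1.42 at 100 pg. All sites of the libraries, inside and outside genes, gave ratios of 1.92 at 1 ng and 1.34 at 100 pg. Sites in all other genes numbered 30175 to 31863 in RBFOX2 and 10995 to 12209 in Buffer-only libraries of 1 ng. At 100 pg they numbered 16782 to 17041 and 9686 to 10903. The ratio at these DUXAP positions lay below that of sites in other genes at both inputs. The 2 are not like sets, since the limit of 7 libraries was set on the DUXAP positions only. At 100 pg the DUXAP ratio rests on 13 to 23 sites a library. Nothing is read from this order.

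**Figure D3:**
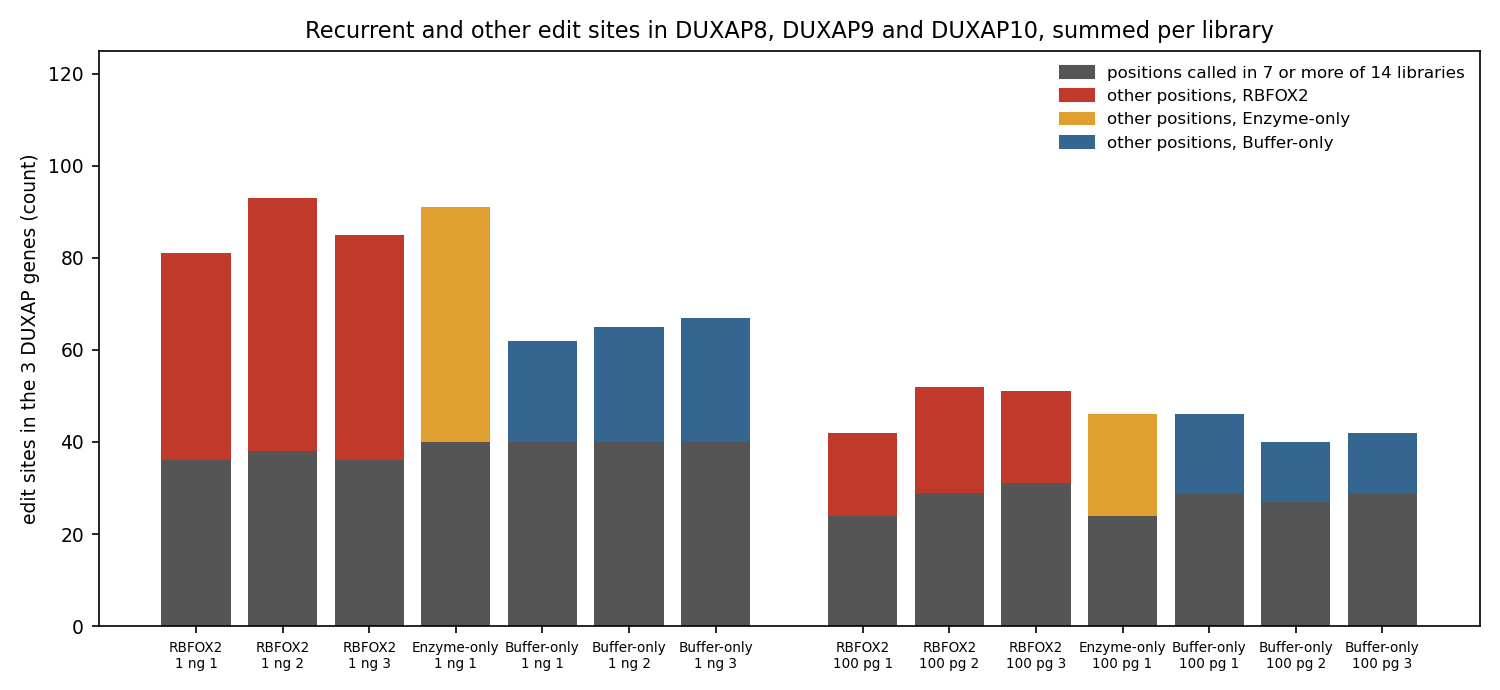
Edit sites in the 3 DUXAP genes (y axis, count) in each of the 14 libraries (x axis), split into positions called in 7 or more libraries (grey) and other positions (red RBFOX2, yellow Enzyme-only, blue Buffer-only). The grey part is 36 to 40 sites in every 1 ng library, while the coloured part is 45 to 55 in RBFOX2 and 22 to 27 in Buffer-only libraries.

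By gene, DUXAP8 had 22, 33 and 29 sites in RBFOX2 libraries of 1 ng, 27 in the Enzyme-only library and 18, 19 and 21 in Buffer-only libraries. DUXAP10 had 28, 26 and 36 in RBFOX2, 26 in Enzyme-only and 23, 21 and 24 in Buffer-only libraries. For both genes every RBFOX2 library was above every Buffer-only library. DUXAP9 had 31, 34 and 20 in RBFOX2, 38 in Enzyme-only and 21, 25 and 22 in Buffer-only libraries, and its groups overlapped. Such a separation was common among the genes tested, since 79.8% of the 99 had more sites in every RBFOX2 library than in any Buffer-only library. These 99 passed a filter on low counts, out of 13898 genes with sites at this input. Libraries of a single group can carry a gene past that filter. This share, and the shares of genes tested given below, therefore do not describe all genes.

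At 100 pg, DUXAP8 had 12, 15 and 19 sites in RBFOX2 libraries, 16 in the Enzyme-only library and 13, 18 and 12 in Buffer-only libraries. DUXAP9 had 16, 20 and 15 in RBFOX2, 18 in Enzyme-only and 21, 9 and 17 in Buffer-only libraries. DUXAP10 had 14, 17 and 17 in RBFOX2, 12 in Enzyme-only and 12, 13 and 13 in Buffer-only libraries. Only DUXAP10 separated RBFOX2 from Buffer-only libraries at this input, as did 43.8% of the 16 genes tested. Over the 3 genes together the order of the group means was RBFOX2 1 ng (86.3 ± 6.11), Buffer-only 1 ng (64.7 ± 2.52), RBFOX2 100 pg (48.3 ± 5.51) and Buffer-only 100 pg (42.7 ± 3.06 sites, SD, n = 3 each), and the last pair overlapped. The Enzyme-only libraries, with 91 and 46 sites, lay inside the RBFOX2 ranges of their input.

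**Figure D4:**
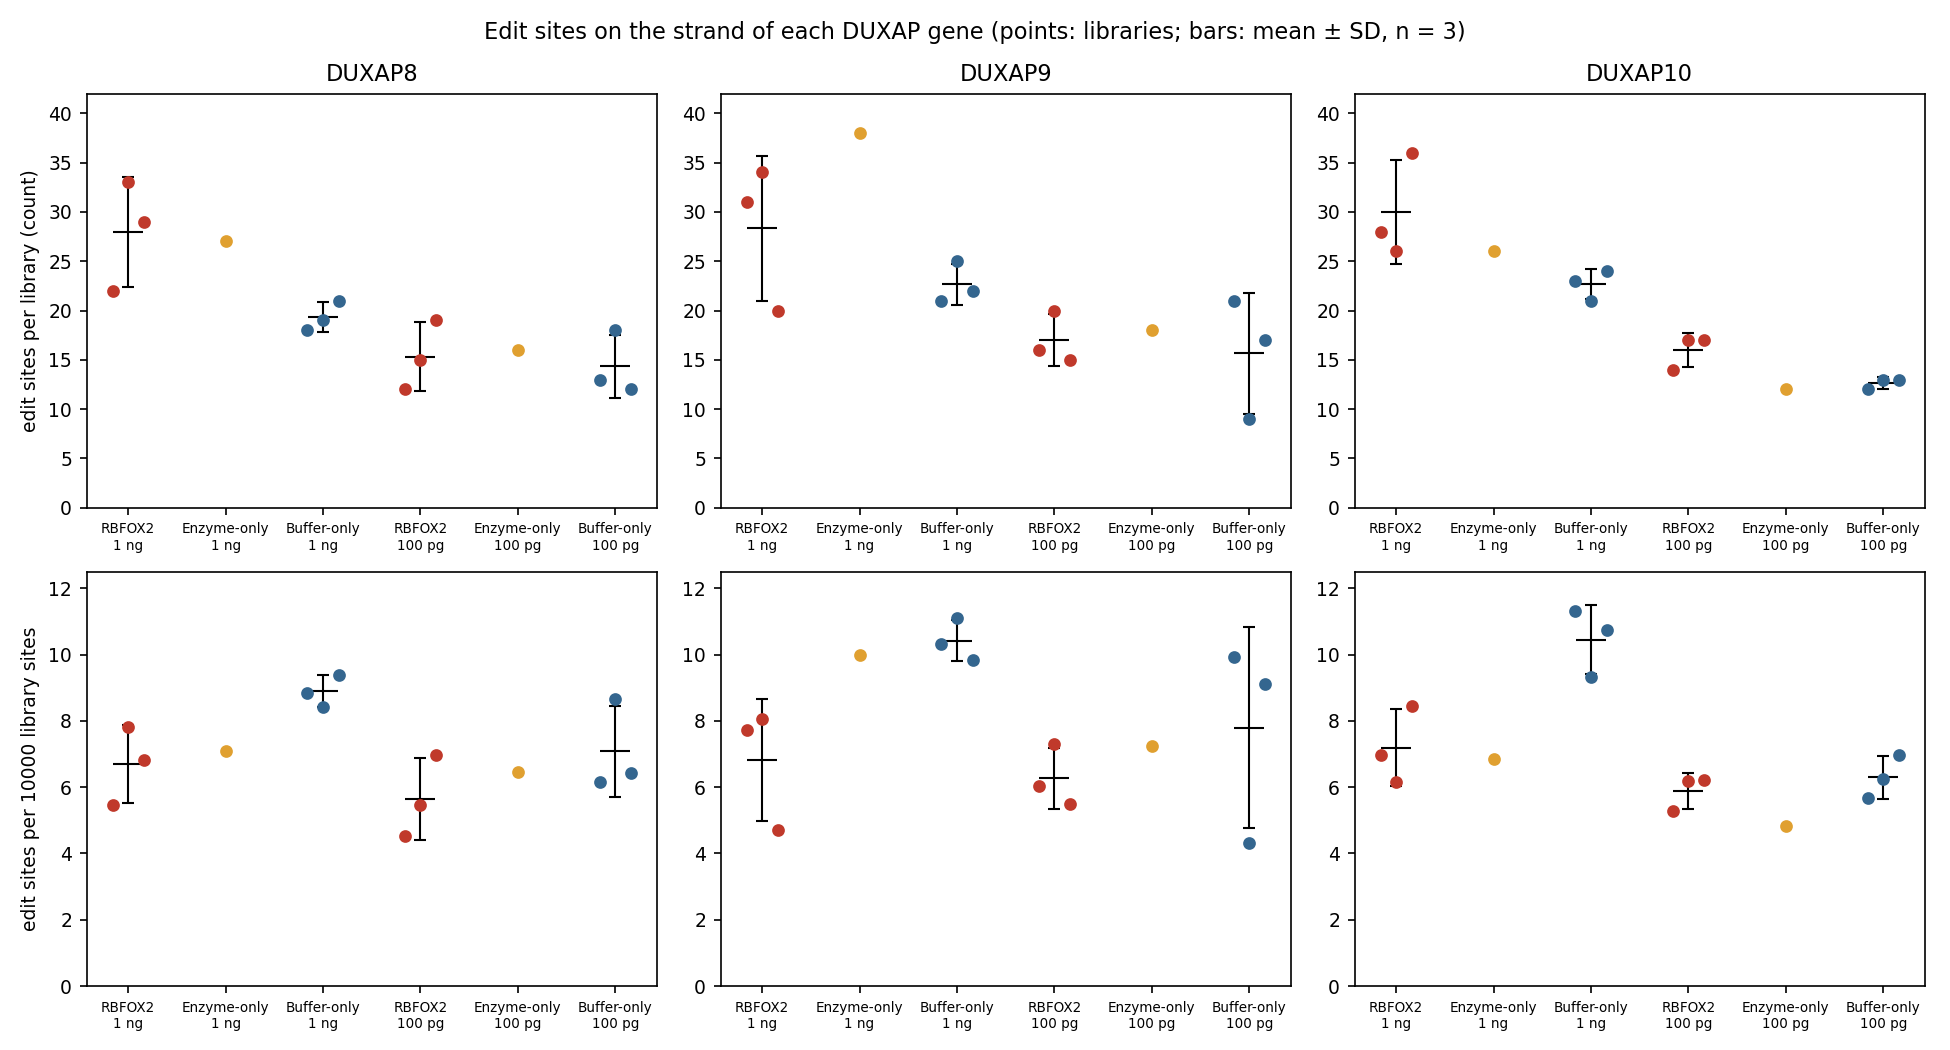
Edit sites per library (top, count) and per 10000 sites of the library (bottom) for DUXAP8, DUXAP9 and DUXAP10 in the 6 groups (x axis), with points for libraries and bars for mean ± SD (n = 3; Enzyme-only has 1 library). At 1 ng the raw numbers are mostly higher in RBFOX2 and the numbers per 10000 are higher in Buffer-only libraries.

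RBFOX2 libraries held more sites in all, and the DUXAP genes took a smaller share of them, as did other long noncoding RNAs and pseudogenes. Per 10000 library sites the 3 genes averaged 20.7 ± 1.14 in RBFOX2 and 29.8 ± 0.851 in Buffer-only libraries of 1 ng (SD, n = 3 each), with 23.9 in the Enzyme-only library. At 100 pg they averaged 17.8 ± 1.74 in RBFOX2 and 21.2 ± 1.72 in Buffer-only libraries (SD, n = 3 each), with 18.5 in the Enzyme-only library. Summed over the genes, no RBFOX2 library reached a Buffer-only library at either input, and at 100 pg the nearest 2 stood at 18.95 and 19.24. Other long noncoding RNAs and pseudogenes separated in the same direction. They had 525 to 533 sites per 10000 in RBFOX2 and 652 to 663 in Buffer-only libraries of 1 ng. At 100 pg they had 582 to 612 and 627 to 669. At 1 ng all 3 genes had a smaller share in every RBFOX2 library than in any Buffer-only library, as did 9.09% of the 99 genes tested, and at 100 pg 0 of 3 members and 0% of the 16 genes tested did.

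A fit of sites per gene with edgeR, over the genes that passed a filter on low counts and scaled by TMM, gave the same direction on the log2 scale. The size of the difference moved with that filter. At 1 ng the log2 fold change, RBFOX2 over Buffer-only, was -1.06 (SE 0.27) for DUXAP8, -1.27 (SE 0.273) for DUXAP9 and -1.20 (SE 0.264) for DUXAP10, but without scaling between libraries it turned to 0.53, 0.32 and 0.40. The median of the 3 was -0.59 without RBFOX2 replicate 1 and -0.43 without RBFOX2 replicate 3. Without the filter on low counts the median of the 3 was -0.56. At 100 pg the values were -0.65 (SE 0.229), -0.63 (SE 0.314) and -0.41 (SE 0.224) for DUXAP8, DUXAP9 and DUXAP10. They turned to 0.10, 0.12 and 0.33 without scaling, and the 3 genes summed into 1 feature gave -0.70. The median over all genes tested was 0.05 with TMM and 1.63 without scaling at 1 ng, and -0.11 and 0.63 at 100 pg. Without scaling, the values of the members were positive but below the median over all genes tested at both inputs. Since this contrast helped to choose the genes, no test of the members is given and nothing is read from these values.

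Edit fractions were mostly well below 0.4. Of the 863 calls, 57 (6.60%) had a fraction of 0.4 to 0.6, against 4.59% over all other genes, and 42 of the 57 were at recurrent positions. The share is given by group, with no test. At 1 ng it averaged 4.32% ± 1.94 in RBFOX2 and 3.58% ± 2.24 in Buffer-only libraries (SD, n = 3 each), with 5.49% in the Enzyme-only library, and over all other genes it was 4.25% to 4.57% in RBFOX2, 5.15% in Enzyme-only and 3.49% to 3.97% in Buffer-only libraries. At 100 pg it was 11.9%, 9.62% and 9.80% in RBFOX2 libraries, 4.35% in the Enzyme-only library and 6.52%, 20% and 14.3% in Buffer-only libraries, from 2 to 8 calls a library. Over all other genes at 100 pg it was 5.52% to 6.11% in RBFOX2, 5.31% in Enzyme-only and 2.93% to 3.17% in Buffer-only libraries. The share was 8.51% in DUXAP10, 8.03% in DUXAP8 and 3.58% in DUXAP9. The median fraction was 0.128 in DUXAP10, 0.112 in DUXAP8 and 0.0811 in DUXAP9, against 0.0702 over all other genes. Sites in the DUXAP genes were also covered more deeply, with a median of 35 reads against 22. Fractions near 0.5 were therefore not a general property of these genes. The nearest to it among recurrent positions was chr14:19325088 of DUXAP10, followed by chr22:15815186 of DUXAP8, with pooled fractions of 0.393 and 0.385.

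Whether an edited base could instead be a read from another copy carrying T was looked at in the genome, which the choice of genes did not use. Each position with 50 nt on either side was searched against hg38 with blastn, at 90% identity or more over 80 nt or more. For the 5 exonic positions called in every library, 0 had a copy with T at the called base (exact 95% interval 0% to 52.2%), against 8.37% of the 5831 exonic C of the 3 genes. These 5 windows were identical in all 3 genes, so T in another member was not possible there. So few positions cannot be told from the 8.37%. Taking the 17 exonic positions called in 7 or more libraries, 2 had one, and no recurrent position had T in another member. Over exons and introns, 5 of 41 recurrent positions (12.2%) had one, against 13.7% of the 328 others. For the 5 bases printed above, the copies found beyond the 3 genes lay on chromosomes 2 and 10, at 93.3% to 98.0% identity, and also had C.

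The recurrent positions lay in sequence that the copies share almost without difference. This window was identical in all 3 genes at 30 of 41 recurrent positions (73.2%) and at 141 of 328 others (43.0%). Equivalent positions of different copies are counted separately in these shares. In exons alone it was identical at 15 of 17 recurrent positions (88.2%), against 51.8% of the exonic C. With reads of 100 nt, a read over the called base reaches at most 99 nt to either side. For 24 of the 41 positions at least 1 other member had no differing base within that reach, and for 14 neither did. Reads over those bases cannot be assigned to a gene by their unspliced sequence, and how reads that match several places were handled is not given in the sources used here.

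Equivalent bases were often called in more than 1 copy: 22 of the 41 recurrent positions (53.7%) had a call at the same base of another member, against 46 of 328 others. This count takes each copy of a shared base as its own position. With equivalents joined, 33 bases were called in 7 or more libraries over the copies, and 14 of these in more than 1 copy. At chr22:15807867 of DUXAP8 and chr14:19314742 of DUXAP10 the base was called in 13 libraries in both, with median fractions of 0.238 and 0.235. At chr22:15788907 of DUXAP8 and chr14:19066323 of DUXAP9 the medians over 13 shared libraries were 0.0826 and 0.0692. Other pairs differed more. At chr14:19086209 of DUXAP9 and chr14:19313838 of DUXAP10 they were 0.0822 at 71.5 reads and 0.369 at 9.5 reads over 8 shared libraries, with DUXAP10 higher in 8 of 8. That window is repeated widely in the genome, with 1876 copies found. At chr22:15788651 of DUXAP8 and chr14:19066067 of DUXAP9 the medians were 0.104 and 0.10, while the same base of DUXAP10, chr14:19333982, was called in 6 libraries at a median of 8 reads and a median fraction of 0.375.

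The base before the edited C was tallied for both classes, with no test between them. Recurrent positions followed A or U at 17 of 41 (41.5%) and the others at 197 of 328 (60.1%), exons and introns together. In exons alone recurrent positions did so at 6 of 17 (35.3%), against 51.9% of exonic C. At recurrent positions the share of calls after A or U was 38.2% in RBFOX2, 40.0% in Enzyme-only and 40.8% in Buffer-only libraries of 1 ng. These calls repeat largely the same 41 positions in each group, so a like share follows from how the class was set. At the other positions it was 66.4% in RBFOX2, 60.8% in Enzyme-only and 48.6% in Buffer-only libraries of 1 ng. Over all other genes it was 76.3% to 77.1% in RBFOX2, 72.7% in Enzyme-only and 47.1% to 48.4% in Buffer-only libraries of 1 ng.

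At 100 pg the pattern was less clear. The other positions gave 50.8% in RBFOX2, 63.6% in Enzyme-only and 60.5% in Buffer-only libraries, from 61, 22 and 43 calls, against 65.1% to 65.7% in RBFOX2, 60.0% in Enzyme-only and 47.3% to 48.0% in Buffer-only libraries over all other genes. Over all DUXAP calls, the share per library averaged 54.3% ± 3.32 in RBFOX2 and 43.8% ± 0.877 in Buffer-only libraries of 1 ng (SD, n = 3 each; exact two-sided permutation p = 0.1, the smallest that 3 against 3 allows; adjusted over 2 comparisons 0.2). At 100 pg it averaged 46.5% ± 5.74 in RBFOX2 and 50.3% ± 6.04 in Buffer-only libraries (SD, n = 3 each; exact two-sided permutation p = 0.5, adjusted 0.5).

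**Figure D5:**
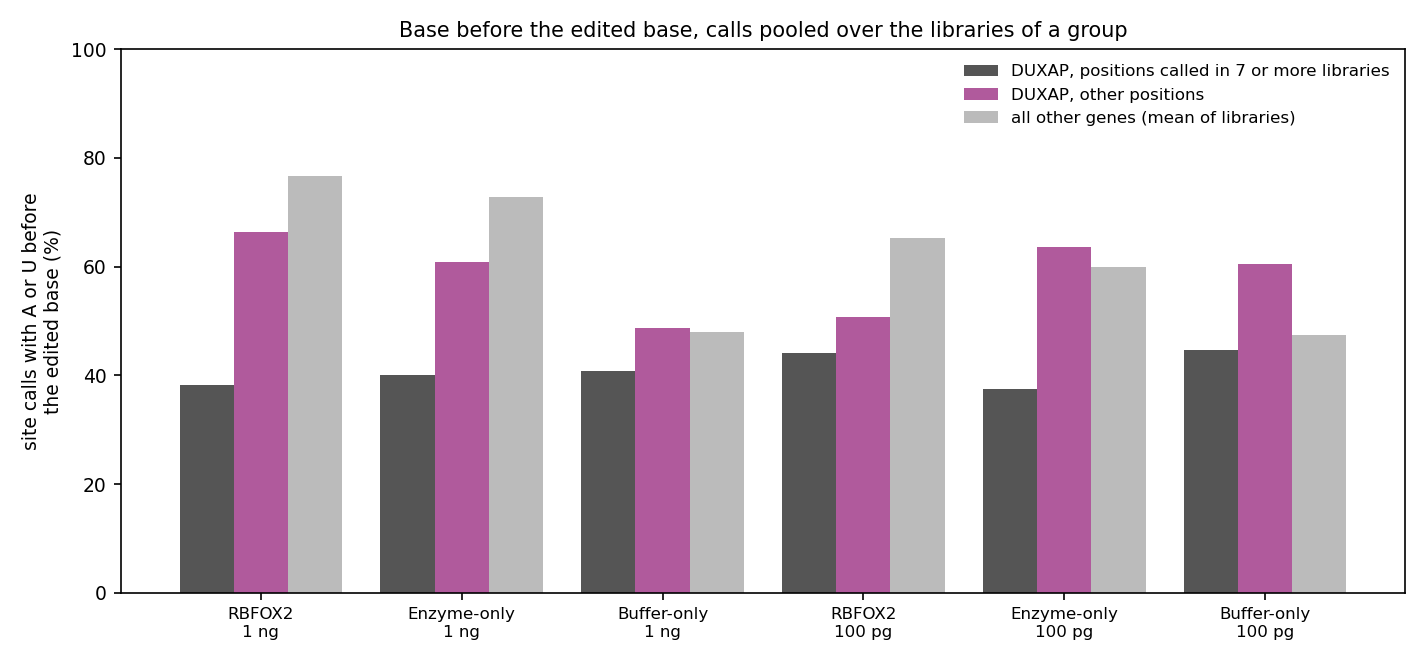
Share of site calls (y axis, %) with A or U before the edited base in the 6 groups (x axis), for DUXAP positions called in 7 or more libraries (dark grey), other DUXAP positions (purple) and all other genes (light grey). The dark bars, which draw on the same set of positions in every group, lie between 37.5% and 44.7%.

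The RBFOX2 motif UGCAUG was searched on the strand of the gene only, in the same windows. It was in 0 of 41 recurrent and 6 of 328 other windows, exons and introns together, and in 1.78% of the windows around exonic C.

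The strand opposite the genes carried nearly as many calls. It held 829 calls at 279 positions, 42 of them called in 7 or more libraries and 10 in all 14, of which 7 lay opposite DUXAP9. Opposite DUXAP8 there were 16, 12 and 19 sites in RBFOX2, 17 in Enzyme-only and 17, 17 and 23 in Buffer-only libraries of 1 ng. Opposite DUXAP9 there were 27, 30 and 35 in RBFOX2, 36 in Enzyme-only and 23, 30 and 31 in Buffer-only libraries of 1 ng. Opposite DUXAP10 there were 17, 11 and 18 in RBFOX2, 19 in Enzyme-only and 21, 19 and 26 in Buffer-only libraries of 1 ng. Over the 3 genes together the RBFOX2 and Buffer-only libraries overlapped at both inputs, with means of 61.7 and 69 sites at 1 ng and 50.7 and 54 at 100 pg. Annotated RNAs run on that strand inside DUXAP8 and DUXAP10 and over the 3′ end of DUXAP9, and the library kit is not stated to keep strand, so reads of the genes and of these partners cannot be told apart.

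Edit clusters are windows that FLARE scored as enriched for edits. The 3 genes had 65, 79 and 69 clusters in RBFOX2, 82 in Enzyme-only and 58, 61 and 65 in Buffer-only libraries of 1 ng, and 36, 46 and 44 in RBFOX2, 44 in Enzyme-only and 43, 36 and 38 in Buffer-only libraries of 100 pg. The lists deposited as confident hold clusters found in all 3 replicates, before and after Buffer-only clusters are taken out, and the study's text also keeps the word for what is left after that step. Before removal, 32 of 907 RBFOX2 clusters of 1 ng (3.53%) and 39 of 250 Buffer-only clusters (15.6%) lay in the 3 genes. At 100 pg these were 17 of 267 (6.37%) and 15 of 102 (14.7%). So a larger part of the Buffer-only list than of the RBFOX2 list came from these genes at both inputs.

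The final RBFOX2 lists are those left after Buffer-only clusters were removed. Of the 32 clusters of 1 ng in these genes before removal, 29 overlapped a cluster of the Buffer-only list on the same strand, against 149 of 907 over all genes. Of 776 clusters left after removal, 6 were in the 3 genes. Of these 6, 3 still overlapped a Buffer-only cluster, against 13 of 776 in all, among them chr14:19298923-19299012 of DUXAP10 and chr14:19101055-19101174 of DUXAP9, which hold the shared base called in all 14 libraries. At 100 pg, 9 of 17 overlapped a Buffer-only cluster, against 60 of 267 over all genes. Of 214 left after removal, 9 were in the 3 genes, and 0 of these 9 overlapped a Buffer-only cluster of that input, against 5 of 214 in all. Most of them hold a recurrent base. Bases called in 13 libraries lie in chr22:15788881-15788925 and chr22:15807839-15807883 of DUXAP8 and chr14:19314714-19314758 of DUXAP10. Bases called in 12 lie in chr22:15821245-15821289 and chr22:15822010-15822099 of DUXAP8 and chr14:19089187-19089231 of DUXAP9. A base called in 11 lies in chr14:19300483-19300527 of DUXAP10.

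Relatives and neighbours of these genes carried few sites. None of the 13 listed genes of the DUX family, DUXA, DUXB and DUX4 among them, had a site in any library. Of 15 genes listed near the same duplications, 14 were in the annotation and 4 had sites, BMS1P22 most with 17 over all libraries, and 0 had enough for the fit. Among 8 other listed noncoding RNAs, 7 had sites and 2 were tested at 1 ng. Of all 99 genes tested there, 14.1% had more and 11.1% fewer sites in RBFOX2 at an adjusted edgeR p under 0.05. Of the 2, 0 had more and 1 had fewer. That 1 was HOXA-AS3, a HOXA antisense RNA, with a log2 fold change of -2.0, a mean of 6.67 sites in RBFOX2 and 9 in Buffer-only libraries. NEAT1, the scaffold of paraspeckles, had 22.3 and 7.33 and a log2 fold change of 0.01 with TMM.

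Genes that varied most like the DUXAP genes across the 14 libraries, in sites per 10000 library sites, were ENSG00000274333, a long noncoding RNA of chromosome 21, with a Pearson r of 0.72, FTX (0.42), PRKDC (0.26), FOXP1 (0.22) and RAD51B (0.18), among 34 genes with a mean of 10 or more sites. The shares have library totals in common, so r is a description over 14 libraries. Ranked by the share of positions called in all 14 libraries, among 4082 genes with 20 or more positions, the leading genes were TSIX (12.0% of 25 positions), ENSG00000291205 (7.69% of 26), ENSG00000291113 (5% of 20), FRG1HP (4.55% of 22) and LRCH3 (4.35% of 23). DUXAP10 ranked 13 with 2.56% of 117 positions and DUXAP9 ranked 17 with 2.10% of 143, while DUXAP8 was among the 4061 genes with no such position. ENSG00000291205 lies on the strand opposite DUXAP10.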

How the data were processed

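Single-end reads of 100 nt were trimmed with cutadapt, filtered of repeats and aligned with STAR (version 2.4.0, as listed by the submitters) to hg38. SAILOR called C-to-U edits, removing known variants and keeping scores above 0.5 and edit fractions below 0.8, and FLARE called clusters at a false discovery rate of 0.1. Per the file headers and values, the deposited site files give edited reads, covering reads and a score per position. The edit fraction was computed as edited over covering reads. The deposited cluster tables hold counts of bases and reads, fractions, a mean coverage signal and a score. The authors' confident lists give coordinates and mean depth as a signal, with p-values as other text that was not used.

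Sites were assigned to Gencode 44 genes on their strand, members before other genes, then exons before introns. Sites per gene were fitted with edgeR 4.0.16 (quasi-likelihood, TMM, filterByExpr, Benjamini-Hochberg over all genes tested), checked on simulated data, with DESeq2 1.42.0 as an alternative in R 4.3.3. Each position with 50 nt on either side was searched with blastn 2.17.0 on the primary chromosomes, with at most 200 matches per chromosome. Pandas 2.3.3 and scipy 1.17.1 were used for the rest. Named genes were the 3 members, fixed lists, and the 5 genes most like the members by each of 2 rules. The members, the lists and the tests were chosen with earlier results of these data known, and the test of the base before the edit and the limit of 99 nt were added after seeing the values. Groups came from the titles. Intervals cover counting error only, since reads without molecular identifiers are not independent molecules. Coverage per site, which limits the precision of a fraction, is given with the values. Alternatives were the tool, scaling, filter, replicate block, summed members, left-out replicates, score, coverage, exons, input, fraction window and copy definition.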

Additional observations from a re-analysis of the deposited data

How the results depend on the processing

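Scaling decided the direction of the fold changes. Without scaling between libraries the median log2 fold change of the 3 genes turned to 0.40 at 1 ng and to 0.12 at 100 pg. By gene, DUXAP8, DUXAP9 and DUXAP10 gave 0.53, 0.32 and 0.40 at 1 ng and 0.10, 0.12 and 0.33 at 100 pg. Without a filter on low counts the median was -0.56 at 1 ng and -0.28 at 100 pg. DESeq2 gave -1.29 and -0.60 and the 3 genes summed -1.35 and -0.70 at 1 ng and 100 pg. Leaving out 1 replicate gave medians of -1.37 to -0.43 at 1 ng and -0.85 to -0.31 at 100 pg.

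Replicate numbers were not taken as pairs: deviations of same-numbered RBFOX2 and Buffer-only libraries correlated at -0.17, -0.07 and 0.10 at 1 ng (99 genes) and at -0.23, 0.36 and 0.36 at 100 pg (16 genes). With the replicate number as a block the medians were -1.20 and -0.60 and 3 and 0 genes were called lower. Over all genes the block moved the calls at 1 ng to 3 higher and 8 lower.

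Mean sites per library fell to 41 in RBFOX2 and 38.3 in Buffer-only libraries of 1 ng and to 28 and 30.7 at 100 pg with scores of 0.99 or more. They were 62 and 48, and 37.3 and 33.3, with 20 or more reads, and 35.3 and 22, and 20.3 and 18.7, in exons only. The share of positions called in every library was 4.10% in exons, 10.7% over the 7 libraries of 1 ng and 3.80% over the 7 of 100 pg. A fraction window of 0.3 to 0.7 held 14.3% of calls. The causes of these shifts were not tested. Low coverage limits single fractions, and calls exist only at positions with 5 or more reads, so an uncalled position may be an uncovered one.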
